A study of Mus musculus with 6 samples.

Results

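The 9 genes described here encode the signalling core of the B cell receptor: Cd79a, Cd79b, Cd81, Lyn, Syk, Btk, Blnk, Plcg2 and Pik3ap1. They were taken by symbol from the 23412 rows of a count table of splenic germinal centre B cells, and all 9 were found and passed the filter on low counts. In control mice, called Cg1-cre(+/-) in the labels, one allele makes Cre recombinase from the locus of the IgG1 constant region, which is active in germinal centre B cells. The treatment protocol adds DAF-Tg(+/+) to the control genotype. DAF-TM mice, Cg1-cre(+/-);DAF-TM(fl/fl), carry the same Cre allele and a DAF-TM cassette that Cre switches on, placed at R26 (Rosa26) by the design text (the header of the count table writes the genotypes with other allele names), so the Cre allele is common to both groups. DAF, encoded by Cd55, protects cells from complement deposited on their own surface. Cells positive for B220, Fas and GL7 were sorted 10 days after injection of sheep red blood cells into the peritoneum. The sources used here do not give the age, sex, litter or pooling of the mice. The p-values therefore measure a spread between libraries, which may be technical and which the main fit mostly pools over genes.

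The B cell receptor is an antibody of the membrane held by a pair of signalling chains, CD79A and CD79B. When antigen binds, Lyn phosphorylates the tails of these chains, Syk docks on them, and Syk phosphorylates the adaptor BLNK. BLNK brings Btk together with phospholipase C gamma 2, which releases calcium and activates protein kinase C, while the adaptor BCAP (Pik3ap1) recruits phosphoinositide 3-kinase (PI3K), and the tetraspanin CD81 belongs to the co-receptor complex. Germinal centre B cells are known to signal weakly through this receptor, and selection there depends on antigen that the receptor takes up and shows to T cells.

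Each group had 3 samples in the labels, but each of the 23412 rows repeated the count of DAF-TM replicate 2 in replicate 3. Their difference, 0, was below the sampling noise, and they count here as 1 sample, DAF-TM library 2, so 3 control and 2 DAF-TM libraries were compared, with totals from 7257339 to 12783965 counts. Cd55 stood at 28.7, 34.3 and 23.4 CPM (counts scaled to a common library total by TMM) in control libraries 1 to 3 and at 712 and 725 in DAF-TM libraries 1 and 2, in the direction of the labels. All 7 B cell markers and all 11 germinal centre markers listed were detected and none passed the test. Summed germinal centre markers stood at 4352 to 5188 CPM in the controls and at 4043 and 4134 in the DAF-TM libraries, with all 11 fitted differences below 0 (median log2 fold change -0.23). In the same fit 46.1% of all genes tested were below 0, and 87.8% of the 714 genes at least as abundant as Pik3ap1 (median -0.16). The sums depend on the TMM factors, which are described below. Xist, which coats the inactive X chromosome of female cells, was at 758, 2.63 and 2.86 CPM in the controls and at 296 and 719 in the DAF-TM libraries, and Y-linked genes were high where Xist was low, with both present in DAF-TM library 1. Libraries with much Xist thus occurred in both groups.

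None of the 9 genes passed the test between DAF-TM and control cells (edgeR quasi-likelihood test, Benjamini-Hochberg adjusted over 18767 genes, lowest adjusted p = 0.91, for Pik3ap1). Among all genes tested 77 passed, 0.41%, with 0.373% higher and 0.0373% lower in DAF-TM cells. DESeq2 and limma-voom also called 0 of the 9 by adjusted p. At an unadjusted p under 0.05 the count in edgeR was again 0, against 5.74% of all genes, and 0 in limma-voom, but DESeq2 had 1, Pik3ap1 (DESeq2 adjusted p = 0.955). The fitted log2 fold changes lay between -0.30 for Pik3ap1 and 0.01 for Cd79a, with a median of -0.08. Of the 9 genes 7 were below 0, where 46.1% of all genes tested were (median 0.03). Of the 714 genes at least as abundant as Pik3ap1, all 9 members among them, 87.8% were below 0 (median -0.16). The median of the 9 was -0.30 without DAF-TM library 1 and -0.03 without DAF-TM library 2. The 95% intervals all included 0. Their outermost bounds were a change of -35.2%, for Pik3ap1, and of 26.0%, for Cd79a. Those intervals, and the edgeR p-values, rest mostly on a spread that edgeR pooled over genes. The pool carried a median of 1139 degrees of freedom, against 3 residual degrees of freedom from the libraries themselves.

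**Figure D1:**
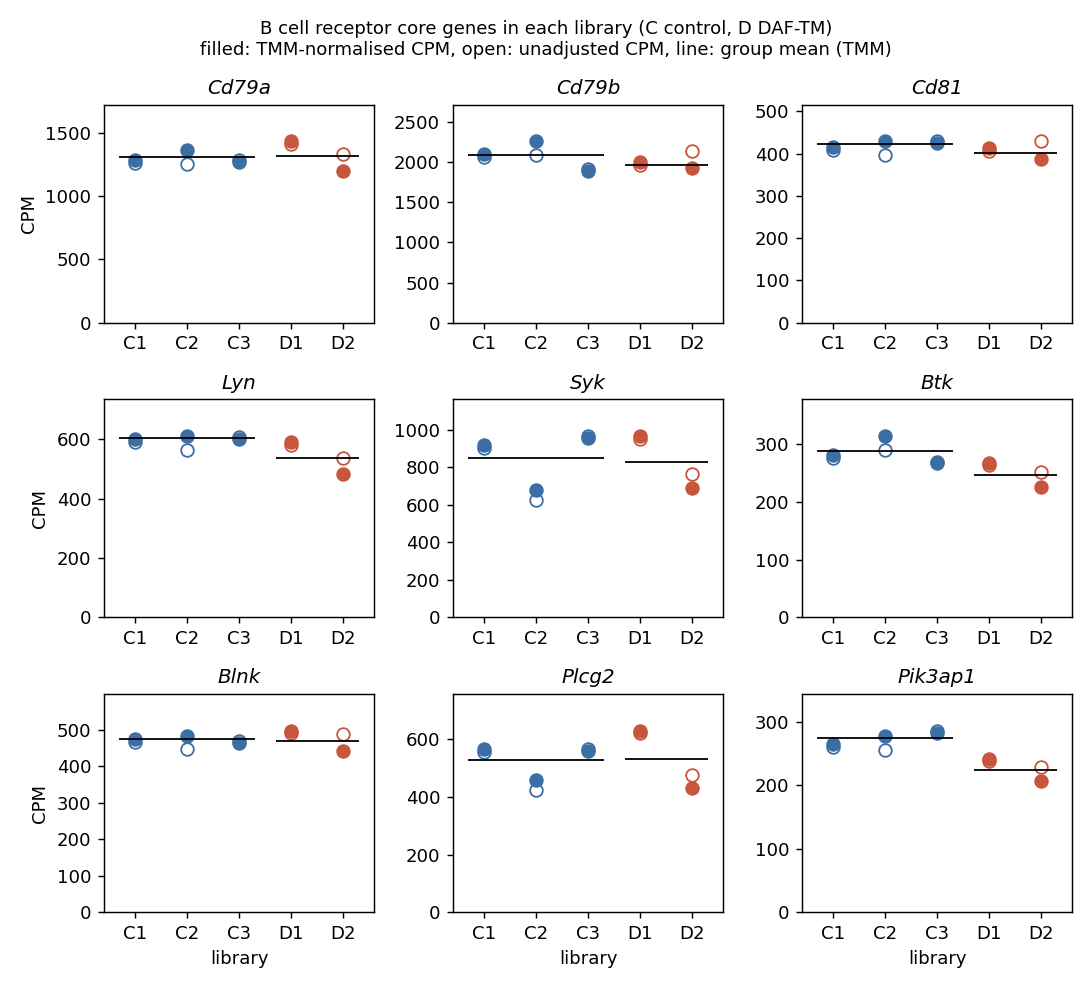
Level of each of the 9 genes in CPM (y axis, from 0) in control libraries 1 to 3 (C, blue) and DAF-TM libraries 1 and 2 (D, red). Filled points are TMM-normalised CPM, open points CPM without the composition factor, and lines the group means of the filled points; the filled points of D2 are the lowest in 7 of the 9 panels, the open ones in 3.

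CD79A and CD79B, the chains that carry the signal into the cell, were by far the most abundant of the group. On the RPKM scale, CPM divided by exon length in kilobases, Cd79b ranked 6th and Cd79a 11th of the 22961 genes with a known length. Cd79a, on chromosome 7 (24897381 to 24902197, plus strand, GRCm38), was at 1286, 1362 and 1272 normalised CPM in the controls and at 1434 and 1198 in the DAF-TM libraries. The DAF-TM values enclosed those of the controls, and the log2 fold change was 0.01 ± 0.16 (SE). Cd79b, on chromosome 11 (106311341 to 106314762, minus strand), was at 2106, 2263 and 1892 CPM in the controls and at 1999 and 1929 in the DAF-TM libraries, both within the range of the controls (-0.09 ± 0.16). The ratio of Cd79a to Cd79b on the RPKM scale stood at 0.60, 0.59 and 0.66 in the controls and at 0.70 and 0.61 in the DAF-TM libraries. The 2 proteins form a heterodimer, and the ratio of their RNAs, which does not depend on the scaling between libraries, overlapped between the groups.

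Cd81, the tetraspanin of the co-receptor complex, varied least of the 9 between libraries, by 1.11-fold from the lowest to the highest. Its RNA was counted with 417, 429 and 425 CPM in the controls and with 414 and 388 in the DAF-TM libraries, the latter below the controls, that of library 1 by less than the spread among them (log2 fold change -0.08 ± 0.17). Cd81 lies on chromosome 7 (143052739 to 143067934) and shares 104 exon bases with R74862, a transcript of the opposite strand that has a row of its own, so reads from that overlap cannot be told apart without the strand setting.

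Of the kinases, Lyn begins signalling by phosphorylating the CD79 chains and also feeds the inhibitory receptors. Lyn (chromosome 4, 3678115 to 3813122) was almost constant in the controls, at 599.8, 611 and 599.7 CPM, and stood at 590 and 484 in the DAF-TM libraries. Both DAF-TM values were below the controls, that of library 1 narrowly, and the fitted difference (-0.17 ± 0.17) was -0.03 without DAF-TM library 2. Syk, which amplifies the signal, lies on chromosome 13 (52583173 to 52648792). It was at 918, 678 and 958 CPM in the controls and at 966 and 691 in the DAF-TM libraries, so control library 2 and DAF-TM library 2 were low and the other 3 libraries high, across the groups (-0.04 ± 0.17). Btk, the kinase whose loss causes X-linked agammaglobulinaemia, lies on the X chromosome (134542336 to 134583570). Btk was at 280, 313 and 266 CPM in the controls and at 267 and 226 in the DAF-TM libraries, where DAF-TM library 1 fell within the controls and DAF-TM library 2 below them (-0.22 ± 0.17). Btk was highest in control library 2, which had little Xist, and lowest in DAF-TM library 2, which had much. Control library 1, with as much Xist, stood above control library 3, with little. The part of sex in the level of Btk was not tested. No member passed with the level of Xist as a covariate, and none passed without it.

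Blnk, the scaffold on which Syk, Btk and phospholipase C gamma 2 meet, lies on chromosome 19 (40928927 to 40994535). It stood at 475, 484 and 464 CPM in the controls and at 498 and 442 in the DAF-TM libraries, on both sides of the controls (log2 fold change -0.01 ± 0.17). Plcg2, which makes the messengers for calcium and protein kinase C, lies on chromosome 8 (117498291 to 117635142). It followed the same libraries as Syk, with 566, 460 and 561 CPM in the controls and with 631 and 431 in the DAF-TM libraries (0.01 ± 0.17), and DAF-TM library 1 was the highest of the 5. Syk and Plcg2 were the members with the widest spread among the controls, with coefficients of variation of 17.8% and 11.3%, against 1.07% for Lyn and 1.52% for Cd81. Without DAF-TM library 1 the fitted differences of Syk and Plcg2 were -0.31 and -0.30, and without DAF-TM library 2 they were 0.18 and 0.25.

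Pik3ap1, which encodes BCAP, an adaptor that binds PI3K once Syk and Btk have phosphorylated it, had the lowest unadjusted p of the group. Pik3ap1 (chromosome 19, 41272377 to 41385102, minus strand) was at 265, 277 and 282 CPM in the controls and at 241 and 206 in the DAF-TM libraries. Both DAF-TM libraries were below all controls, at 223 ± 24.9 against 275 ± 8.92 (SD, n = 2 and 3). The fitted change was -18.6%, with a 95% interval from -35.2% to 2.13% (log2 fold change -0.30 ± 0.17, SE), and 8.25% of all genes tested had a lower unadjusted p. It remained below 0, between -0.42 and -0.19, in each of 15 alternative fits and passed in none of them.

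**Figure D2:**
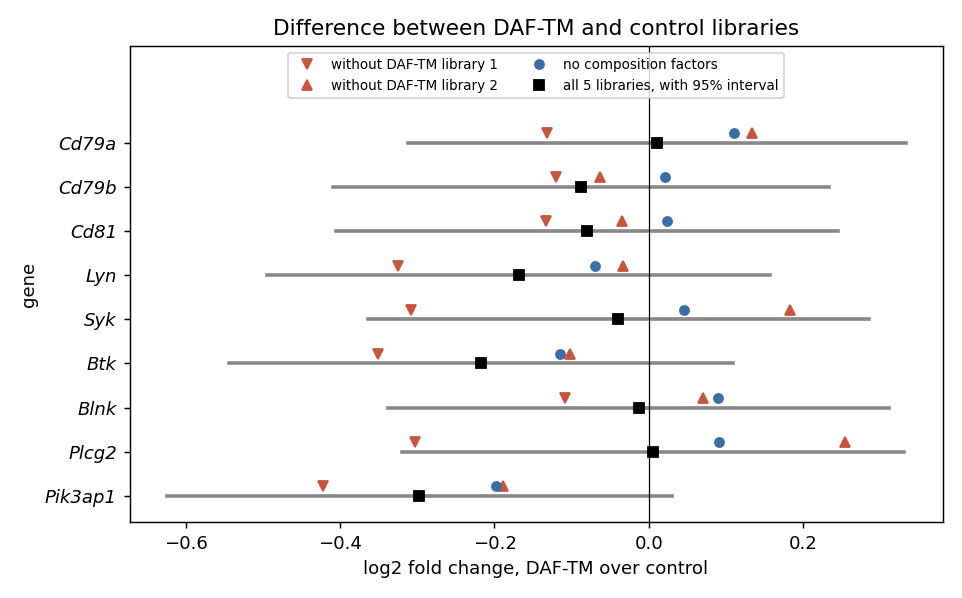
Log2 fold change of each gene, DAF-TM over control (x axis), with all 5 libraries (black squares, grey bars for the 95% interval), without DAF-TM library 1 or 2 (red triangles) and without composition factors (blue points). Every grey bar crosses 0, and the values of Lyn, Btk and Pik3ap1 stay below 0 in all of these fits.

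How the libraries were scaled bore on the sign of most of these small differences. DAF-TM library 2 had the largest TMM factor, 1.11 against 0.92 to 1.01 in the others, and was the lowest of the 5 libraries for 7 of the 9 genes after TMM. The same held for 522 of the 714 genes at least as abundant as Pik3ap1 (73.1%), of which 627 had a log2 fold change below 0, with a median of -0.16. In CPM without the factor, DAF-TM library 2 was the lowest for 3 of the 9 genes, and the median log2 fold change of the 9 was 0.02 in place of -0.08. That scaling moved the median of all genes tested from 0.03 to 0.13. With TMM, Cd81, Lyn and Pik3ap1 were below the controls without overlap, 3 of 9 where 9.02% of all genes and 30.1% of those 714 were (20.3% of all genes did not overlap in either direction). Without the factor, Btk and Pik3ap1 were below without overlap (4.4% of all genes) and Cd79a and Blnk above (16.7%, and 21.1% in either direction), so Pik3ap1 was the gene of the 9 that stood apart under both scalings.

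Set against the geometric mean of the 9 genes in the same library, a scale on which the factors cancel, Syk and Plcg2 varied across the groups. Syk stood at 1.5, 1.12 and 1.57 times that mean in the controls and at 1.56 and 1.33 in the DAF-TM libraries, and Plcg2 at 0.92, 0.76 and 0.92 and at 1.02 and 0.83. Pik3ap1 stood at 0.43, 0.46 and 0.46 of that mean in the controls and at 0.39 and 0.40 in the DAF-TM libraries. Lyn (0.98 to 1.01 against 0.95 and 0.94) and Btk (0.44 to 0.52 against 0.43 and 0.44) were also lower without overlap. For Btk the gap, from 0.4366 in control library 3 to 0.4364 in DAF-TM library 2, is not resolved at this depth. Cd79a (2.09 to 2.26 against 2.31 and 2.32) was higher. Pik3ap1, Lyn, Btk and Cd79a make 4 of 9, 3 of them lower, where 20% of all genes did not overlap on this scale and 3.06% were lower. The scale centres the 9 genes on their own mean but not the other genes. These shares therefore cannot serve as a background for the 9, and no conclusion is drawn from the comparison. The 9 values of a library share the mean that they are set against, so they are not independent of one another.

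**Figure D3:**
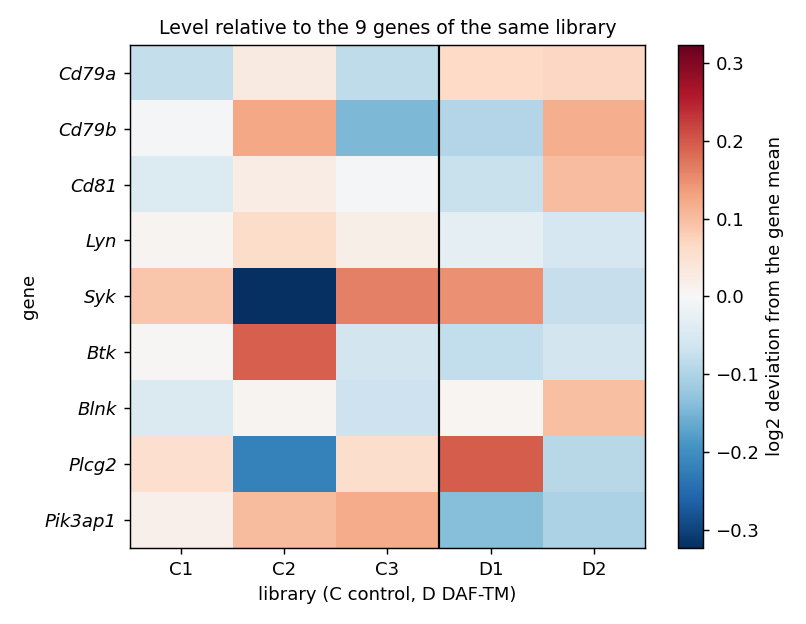
Level of each gene (rows) in each library (columns, C control and D DAF-TM) relative to the geometric mean of the 9 genes, as a log2 deviation from the mean of the row (colour). Syk and Plcg2 are low in C2 and D2, and Pik3ap1 and Lyn are below their row mean in both DAF-TM libraries.

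Per length, the order of the means in control cells was Cd79b (1458 RPKM), Cd79a (897), Lyn (148), Cd81 (147), Plcg2 (123), Btk (91.0), Syk (90.9), Blnk (79.2) and Pik3ap1 (49.3). Among neighbours in this order, Lyn and Cd81 (SD 1.58 and 2.24 RPKM), Btk and Syk (7.78 and 16.2) and Syk and Blnk (16.2 and 1.69) did not differ beyond their spread. The DAF-TM order had Cd81 (139) before Lyn (132), Syk (88.5) first of the next 3 before Blnk (78.5) and Btk (78.2), and was otherwise the same. Per length, Lyn stood at 1.5, 2.07 and 1.44 times the level of Syk in the controls and at 1.40 and 1.61 in the DAF-TM libraries. In CPM the order was the reverse, with control means of 851 for Syk and 603 for Lyn. The order between genes thus rests on the merged exon lengths, 9362 bases for Syk and 4073 for Lyn.

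Promoter sequences from RefSeq (GRCm38.p6, from 250 bases before to 50 after the start) were matched for 7 of the 9 genes, and those of Cd79b and Lyn were not analysed here. The hexamer GAGGAA, a core of the sites bound by ETS factors such as PU.1, was found on either strand near 4 of the 7, Btk, Cd79a, Pik3ap1 and Syk, and in 28.3% of all 32851 promoters of that length. The octamer ATGCAAAT, read by OCT1 and OCT2, was found in Blnk and in 1.74% of all promoters, GGGCGG in Cd81 and Plcg2 (35.7%), TATAAA in Cd81 (13.6%) and the palindromic EBF1 motif (TCCC and GGGA 2 bases apart) in none of the 7 (0.904%), each searched on both strands. Only Cd81 held 2 of these motifs, and the letters of GGGCGG and TATAAA do not allow them to overlap. A match, or its lack, describes letters in this window only. The stretches around GAGGAA are shown for the most and the least abundant of the 7 genes, Cd79a (chr7:24897267-24897372, plus strand) and Pik3ap1 (chr19:41385103-41385203, minus strand), 5′ to 3′ along the gene, with the motif or its reverse complement in capitals.
Cd79a: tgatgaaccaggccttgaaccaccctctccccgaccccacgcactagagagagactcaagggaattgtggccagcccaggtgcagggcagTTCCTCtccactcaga
Pik3ap1: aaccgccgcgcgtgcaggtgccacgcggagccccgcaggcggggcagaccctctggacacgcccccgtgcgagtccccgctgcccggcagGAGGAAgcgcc
The motif begins 140 bases before the RefSeq start of Cd79a and 11 bases before that of Pik3ap1.

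The wider pathway was described with 97 other genes in 9 groups by role, all of which passed the filter. Ccnd2 rose, 1 of 97 where 0.373% of all genes did, and the count of those that fell was 0. The median log2 fold change was -0.07, with 67 of the 97 values below 0. Of all genes tested 46.1% were below 0, and of the 714 genes at least as abundant as Pik3ap1 87.8%. Some of the 97 are as abundant as those 714 and others scarcer, and the signs depend on the TMM factors described above. Several of the 97 genes are also made by myeloid and lymphoid cells other than B cells, whose markers were measured in the same libraries. Macrophage and monocyte markers summed to 90.2 to 147 CPM in the controls and to 112 and 165 in the DAF-TM libraries, and 4 of the 13 rose, Csf1r, C1qb, Vcam1 and Slc40a1. Fitted values were above 0 for 11 of the 13 (median log2 fold change 0.66). The most abundant of these markers, Lyz2, had a fitted value below 0 (45.0 to 95.5 CPM in the controls, 32.6 and 57.3 in the DAF-TM libraries). Fcgr1 and Cd14 averaged 1.04 and 1.19 CPM, with no marker at 0. Dendritic cell markers summed to 86.5 to 92.1 CPM in the controls and to 93.6 and 109 in the DAF-TM libraries. Of these 9 markers 8 had fitted values above 0 and 1 rose, Siglech. Natural killer cell markers summed to 33.2 to 52.3 CPM in the controls and to 79.3 and 129 in the DAF-TM libraries, and 7 of 10 rose. T cell markers summed to 289 to 314 CPM in the controls and to 282 and 285 in the DAF-TM libraries, and 2 of 11 rose, Cd3d and Tcf7. Most of that sum was Lck, at 249 to 285 CPM in the controls and at 213 and 223 in the DAF-TM libraries. The fitted value of Lck was below 0, while 10 of the 11 were above 0 (median log2 fold change 0.74). Neutrophil markers summed to 83.8 to 263 CPM in the controls and to 31.4 and 82.0 in the DAF-TM libraries, with a median log2 fold change of -0.78 and no call among 10. The part of such cells in the levels of the pathway genes was not tested, and in bulk samples fewer cells of a type and less RNA per cell cannot be told apart.

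Ccnd2, the D cyclin that receptor signals induce in resting B cells, rose from 27.0, 25.9 and 28.6 CPM to 56.2 and 34.5 (log2 fold change 0.74, SE 0.18, edgeR adjusted p = 0.0128). Its rise rested on DAF-TM library 1, without which the value was 0.34 (adjusted p = 0.594), and it was called in 7 of 15 alternatives (adjusted p from 0.00134 to 0.594). Markers of naive or follicular B cells summed to 704 to 766 CPM in the controls and to 776 and 974 in the DAF-TM libraries, 4 of 8 of them rose, and their part in the level of Ccnd2 was not tested. The call was also lost without control library 1 (0.149) and without control library 3 (0.0613). Other genes that receptor signals induce, 13 further members of its group, did not pass: Cd83, the most abundant, was at 903, 1227 and 902 CPM in the controls and at 805 and 827 in the DAF-TM libraries, and the group's median was 0.14. Among the early genes of the group, singled out after their values were seen, Fos was at 0.82 ± 0.32 (SE, edgeR adjusted p = 0.621), Ier2 at 0.42 ± 0.20 (0.829), Nr4a1 at 0.17 ± 0.29 (0.967) and Egr1 at 0.15 ± 0.17 (0.953), each with overlap between the groups. Of all 14 genes of the group, Ccnd2 included, 8 were above 0 and 6 below. Those below were Egr2 (-0.05), Egr3 (-0.09), Junb (-0.08), Dusp2 (-0.16), Cd69 (-0.03) and Cd83 (-0.31).

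**Figure D4:**
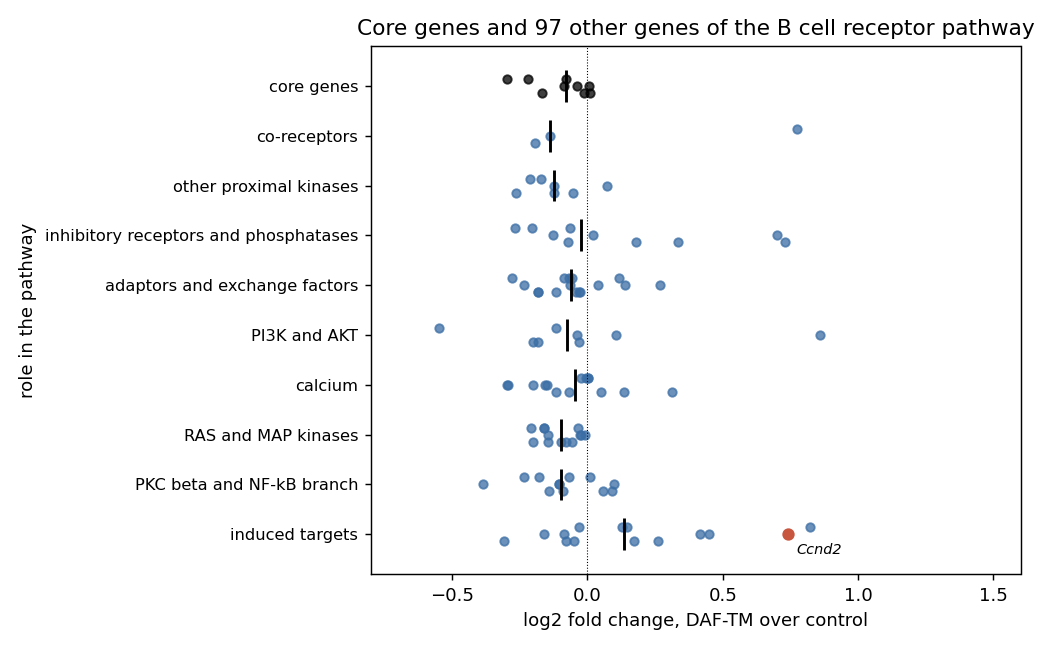
Log2 fold change, DAF-TM over control (x axis), of the 9 core genes (black) and of 97 other genes of the pathway by role (rows); black bars are medians and the red point is the gene past the test. The core genes lie between -0.30 and 0.01, and Ccnd2 is the red point, at 0.74.

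In the other roles the genes named by rule also had no call. Among the co-receptors Ptprc, the phosphatase CD45 that keeps Src family kinases active, was at 1572, 1755 and 1462 CPM in the controls and at 1686 and 1219 in the DAF-TM libraries, with overlap (log2 fold change -0.14 ± 0.16, SE). Ifitm3, a membrane protein tied to PI3K signals in B cells, was scarce, at 3.39 to 10.9 CPM and at 15.6 and 5.40 (adjusted p = 0.945). Lck, a Src family kinase of T cells and some B cells, was at 249, 285 and 252 CPM in the controls and at 213 and 223 in the DAF-TM libraries, below the controls without overlap (-0.26 ± 0.17, adjusted p = 0.945). Csk, the kinase that restrains Lyn, was at -0.12 ± 0.17 (SE) on the log2 scale, and Ptpn6, the phosphatase SHP-1, at -0.06 ± 0.16. Lilrb3 (also named Pirb), an inhibitory receptor of B and myeloid cells, was at 14.2 to 18.0 and at 31.0 and 22.6 CPM (0.70 ± 0.20, adjusted p = 0.104), and passed without control library 2 (0.77, adjusted p = 0.043). The adaptor Bank1 (-0.23 ± 0.17), the ubiquitin ligase Cbl (-0.28 ± 0.17), Akt1 (-0.12 ± 0.17) and the calcineurin subunit Ppp3r1 (-0.29 ± 0.17) did not pass. Nor did the calcium-regulated factor Nfatc3 (-0.15 ± 0.17), the GTPases Rac1 (-0.21 ± 0.17) and Rac2 (-0.15 ± 0.17), Prkcd (0.10 ± 0.17) and the NF-kB subunit Rel (-0.39 ± 0.17, adjusted p = 0.775). All 13 genes of the RAS and MAP kinase group had values below 0, from -0.21 to -0.01, in a fit in which 87.8% of abundant genes did.

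The 5 genes whose pattern over the 5 libraries lay nearest to the mean pattern of the 9 were Oxa1l, Ankle2, Tnfrsf13b, Racgap1 and Odf2, at a root mean square distance of 0.0039 to 0.018 on the log2 scale (median of 7430 candidates 0.137). Tnfrsf13b, the TACI receptor of B cells, was at 55.0, 55.3 and 55.6 CPM in the controls and at 57.0 and 47.5 in the DAF-TM libraries. Its level was lowest in DAF-TM library 2 and nearly even in the other 4 libraries. Of the members Lyn lay nearest to the mean pattern, at 0.0401, and Syk farthest, at 0.182. Syk and Plcg2 (0.142) lay farther from it than the median candidate.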

How the data were processed

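The deposited values are unnormalised whole-number counts for each gene symbol, from reads that the authors aligned to mm10 per the file header. HISAT2, featureCounts and bcl2fastq are named without versions per the submitters' processing notes, while annotation, strand setting and treatment of shared reads were not given in the sources used here. Per the labels' protocols, 10 ng of RNA per sample were amplified from an oligo-dT primer without mention of molecular identifiers.

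Counts were fitted with edgeR 4.0.16 in R 4.3.3 (TMM factors, filterByExpr, robust glmQLFit, two-sided glmQLFTest, Benjamini-Hochberg over 18767 genes, threshold 0.05), with DESeq2 1.42.0 and limma-voom (limma 3.58.1) as alternatives. CPM are counts over TMM-scaled totals. RPKM use merged exon lengths of GENCODE M21, the same build, which may differ from the authors' annotation. The procedure was checked on simulated data, with larger changes than those fitted for the 9 genes. That check cannot tell whether changes as small as theirs would be found. Of 214 gene list entries 212 matched a row, and 2 genes first listed are not reported here. Cd55, the 9 genes, called pathway genes, and in each role the gene of lowest p and of highest mean were named, with the 5 nearest patterns among genes of at least 20 CPM. The members and lists were chosen with earlier results of these data known. The planned 6 samples became 5 libraries because 2 columns were identical.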

Additional observations from a re-analysis of the deposited data

How the results depend on the processing

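None of the 9 genes passed in any of 15 alternatives each (lowest adjusted p = 0.537, Pik3ap1 without DAF-TM library 1), and Lyn, Btk and Pik3ap1 kept their sign in all of them. The replicate numbers do not pair the libraries, since no label ties a number to a litter or day, and with the replicate number as a block 0 of the 9 genes, 0 of the 97 other pathway genes and 61 genes in all passed. Of the other pathway genes 0 passed with DESeq2, 0 with limma-voom, 0 without robust estimation and 0 with Xist as a covariate, and 0 to 2 when 1 library was left out, against 1 with all libraries. Over all genes, against 77, the count was 39 with upper-quartile factors, 32 with DESeq2, 51 with limma-voom, 44 with Xist as a covariate and 42 without composition factors, a setting chosen after seeing the data. It ran from 14 without DAF-TM library 1 to 118 without DAF-TM library 2. Where a fit left 1 DAF-TM library, that library was assumed to vary like the others. Each of the 9 genes had at least 1951 counts in every library; for Lyn and Cd81, which varied least among the controls, the gap from DAF-TM library 1 to the nearest control is not resolved at this depth.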

Other observations

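In the PI3K group 2 genes of the gamma form of the enzyme had fitted values of opposite sign, neither past the threshold, and Pik3cg was singled out after its values were seen. Pik3cg, the catalytic subunit, was at 285, 265 and 233 CPM in the controls and at 185 and 172 in the DAF-TM libraries, below the controls without overlap, as were 9.02% of all genes (log2 fold change -0.55 ± 0.17, SE; edgeR adjusted p = 0.186). Pik3r5, a regulatory subunit that binds it, was at 11.5, 8.73 and 8.99 and at 19.8 and 15.6 CPM, above the controls without overlap, as were 11.3% of all genes (0.86 ± 0.24, edgeR adjusted p = 0.0806; it passed in none of the alternatives). The PI3K delta subunit Pik3cd, the main form in B cells, was at 319 to 458 and at 437 and 339 CPM, with overlap (-0.03 ± 0.17).

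The pattern of Syk and Plcg2, low in control library 2 and DAF-TM library 2, was shared by Nfatc1, a factor activated by calcium, at 303, 189 and 255 and at 293 and 196 CPM, and by Cd38, at 162, 67.5 and 115 and at 140 and 62.8, both picked after their values were seen. Among 7439 genes with a mean of at least 20 CPM, 17.3% had their lowest values in these 2 libraries.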
